A study of Caenorhabditis elegans with 2 samples.

Results

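A stretch of the right arm of chromosome III of Caenorhabditis elegans held more candidate binding regions of SNAI-1 per base than the rest of that arm. Its members are the regions of the authors' pooled list with a summit between positions 11750000 and 13500000 of chromosome III on the genome build ce11. There were 1306 such regions among the 30000 of the pooled list, on 1.75 Mb or 1.75% of the genome. The authors label that list as peaks and background, the input of their reproducibility filter, so a candidate is not a called binding site. A −log10 q of at least 1 was reached by 15.3% of members and 3.71% of the whole list. The interval was chosen on the density of the regions themselves, so its density, signal and share of reproducible regions are given as a description and carry no test. The last candidate before the left edge had its summit at 11746837 with a signal of 36.9, and the first inside it lay at 11750452 with a signal of 68.5. The last candidate inside the right edge, at 13495804, had a signal of 40.4, and the first beyond it, at 13502357, had a signal of 36.1.

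The regions come from chromatin immunoprecipitation followed by sequencing (ChIP-seq), in which DNA crosslinked to a tagged protein is recovered with an antibody, sequenced and scanned for enriched regions. The study used 1 group with 2 biological replicates, each with 1 technical replicate. The worms were of strain OP698, with the genotype unc-119(tm4063) III and the integrated transgene wgIs698, which makes the protein of K02D7.2 (snai-1) with a tag at its C-terminal end. The labels call the tag eGFP in one field and GFP-FLAG in another, describe precipitation with an antibody against GFP, and enter K02D7.2 as the antibody elsewhere. Chromatin came from whole late embryos of mixed sex, 5 hours after synchronization by egg bleaching, and was sheared by sonication. The material holds all cell types of the embryo. Sequencing depth cannot be read from the lists. There was no second condition, and no test between groups was possible.

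SNAI-1 belongs to the Snail family of zinc-finger proteins, which in flies and vertebrates mostly repress transcription from a form of the E-box sequence. The autosomes of C. elegans have gene-dense centres and arms that are richer in repeats and recombine more. Regions of methylated histone H3 lysine 9 are concentrated on those arms. These facts are background and were not measured in this study.

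Reference sequences are shown for the 6 strongest reproducible members outside untranslated regions, which range from promoters to a tandem repeat inside an intron. They are the summit base with 50 bases to each side, in RefSeq's sequence of the WBcel235 assembly, and members whose window overlapped an annotated untranslated region were passed over. Capitals mark matches on either strand to any of 6 letter patterns, which are ACGCGC with CGCGCC, then GCCGCA, then CAGGTG, then CACTTG, then GTTCGA.
cox-5A promoter (chrIII:12905110-12905210, plus strand): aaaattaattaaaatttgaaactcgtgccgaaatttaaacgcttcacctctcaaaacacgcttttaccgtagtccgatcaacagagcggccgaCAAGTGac
mrg-1 and spcs-2 promoters (chrIII:12874859-12874959, plus strand): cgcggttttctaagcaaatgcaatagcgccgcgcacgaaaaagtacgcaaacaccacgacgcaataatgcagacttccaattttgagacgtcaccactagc
F14F7.5 intron (chrIII:13032609-13032709, plus strand): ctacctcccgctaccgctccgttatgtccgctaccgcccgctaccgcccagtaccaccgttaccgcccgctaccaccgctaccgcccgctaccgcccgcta
cpf-2 promoter (chrIII:13268967-13269067, plus strand): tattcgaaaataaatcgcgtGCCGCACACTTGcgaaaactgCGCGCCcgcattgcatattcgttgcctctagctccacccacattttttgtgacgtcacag
C24H11.2 promoter and tRNA gene (chrIII:11792713-11792813, plus strand): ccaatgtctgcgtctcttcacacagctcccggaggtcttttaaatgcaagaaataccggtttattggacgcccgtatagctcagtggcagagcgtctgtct
Y56A3A.6 intron (chrIII:11876035-11876135, plus strand): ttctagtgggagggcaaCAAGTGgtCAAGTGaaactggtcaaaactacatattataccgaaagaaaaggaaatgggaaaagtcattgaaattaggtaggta

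The sequences shared no single pattern. Both orientations included, CACTTG was found in the windows at cox-5A, cpf-2 and Y56A3A.6, and the cpf-2 window also held GCCGCA and CGCGCC. The windows at mrg-1 and spcs-2, F14F7.5 and C24H11.2 held none of the 6 patterns. The F14F7.5 window had a GC content of 69.3% and carried the letters CCGCTA at 7 places that did not overlap. In the C24H11.2 window the right-hand end runs into the tRNA gene WBGene00014264, which starts at 11792782.

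Candidate regions were about 2.2 times as dense in the domain as in the rest of the right arm, taken from 7000000 to the end of the chromosome. The pooled list had 746.3 summits per Mb in the domain and 337.3 in the rest, a ratio of 2.21. The rest begins near the middle of the chromosome, so it is not all repeat-rich arm, and its density was uneven. The 500 kb before the domain held 530 summits per Mb and the stretch after it 472.2, both above the 337.3 of the rest as a whole. The ratio was 2.13 in the list of replicate 1 (1265 and 1712 regions) and 2.17 in that of replicate 2 (1245 and 1650 regions). The difference between the replicates was far smaller than the difference between domain and rest. The median distance between neighbouring summits was 946 bp in the domain and 1734 bp in the rest of the arm. Regions had a width of 456 bp in all 1306 members, and 30.1% of the bases of the domain lay in a candidate region, against 14.3% in the rest.

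The rise was present in most steps of 50 kb, and the same steps were dense in both replicates. The 35 steps of the domain held 15 to 56 pooled summits with a median of 40, and the 100 full steps of the rest held 3 to 38 with a median of 16.5. In replicate 1 the domain's steps held 11 to 62 with a median of 38, and in replicate 2 they held 13 to 55 with a median of 36. In the pooled list 20 of the 35 steps exceeded the highest step of the rest, as did 18 in replicate 1 and 19 in replicate 2, so the ranges overlapped. Over the 35 steps, Spearman's rho between the replicates' counts was 0.94, given as a description of steps that share libraries and sequence. Of the 20 fullest steps among 2002 in the genome, 18 lay in the domain in the pooled list, 18 in replicate 1 and 16 in replicate 2. The fullest step outside it in the pooled list, on chromosome IV from 1350001 to 1400000, held 45.

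**Figure D1:**
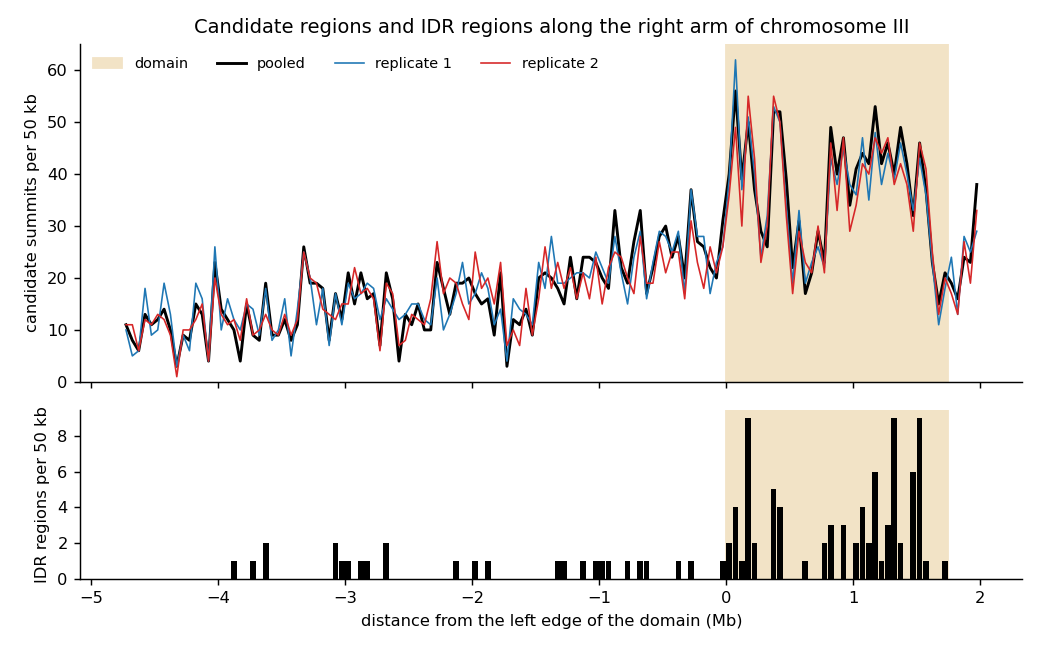
Pooled and replicate counts of candidate summits (upper panel, lines) and counts of regions in the IDR list (lower panel, bars) in steps of 50 kb along the right arm of chromosome III, against the distance in Mb from the left edge of the domain, which is shaded. The lines of the replicates run together, the fullest pooled step of the domain reaches 56, and the counts drop in the middle of the shading and before its right end.

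The name of a single domain covers an uneven interval with 2 dense blocks. The blocks were drawn after the values had been seen. From 11750001 to 12250000 the pooled list had 840 summits per Mb, with 844 in replicate 1 and 806 in replicate 2. From 12550001 to 13350000 it had 855 per Mb, with 811.2 and 803.8 in the replicates. The 300 kb between them held 476.7 per Mb, with 473.3 and 470 in the replicates. The 500 kb that precede the domain held 530 per Mb, with 516 in replicate 1 and 464 in replicate 2, so the middle was lower than this flank in replicate 1 and not in replicate 2. The last 150 kb inside the right edge held 393.3 per Mb (346.7 and 386.7 in the replicates), lower in each list than the stretch from there to the end of the chromosome with 472.2 (454.5 and 433.4). The right-hand drop therefore lay near 13350000, inside the stated edge, in the pooled list and in both replicates. In steps of 10 kb the left edge was marked by a rise from 10 summits in the last step before it to 13 in the first step inside, after 4 to 7 in the preceding 4 steps, but the next 4 inside held 5 to 8, so no sharp border was seen there. Inside the left block, the steps from 12000001 to 12100000 held 29 and 26 summits.

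**Figure D2:**
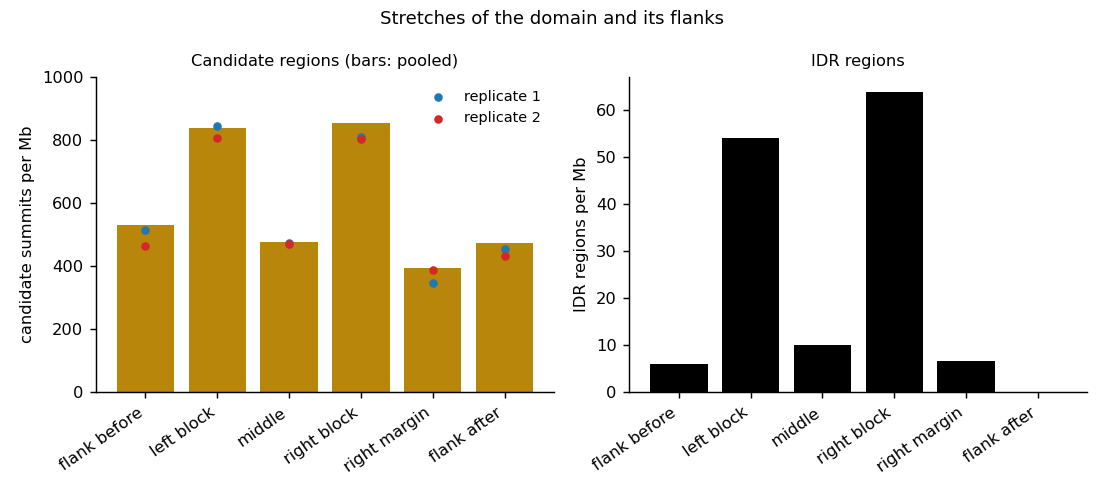
Candidate summits per Mb (left, bars for the pooled list and points for each replicate) and regions of the IDR list per Mb (right) in the flank before the domain, the 4 stretches of the domain and the flank after it. The left and right blocks stand at 840 and 855 candidate summits per Mb, and the middle and right margin at 476.7 and 393.3.

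Members had higher signals than candidates elsewhere on the arm. The 100 strongest regions of the list were also denser in the domain, but by less than those at ranks 101 to 1000. The signal is the authors' deposited value for a region, whose scale the sources leave unnamed, and values were compared inside a single list. Its median was 54.7 in the domain and 45.8 in the rest of the arm, a ratio of 1.19, with 1.21 in replicate 1 (33.3 and 27.5) and 1.20 in replicate 2 (29.2 and 24.4). The highest member had a signal of 413.9, below the highest of the rest at 667.6. The share of regions with a −log10 q of at least 1 was 15.3% in the domain and 3.30% in the rest, with 14.4% and 3.10% in replicate 1 and 12.7% and 3.03% in replicate 2. The ratio of densities was highest just below the strongest regions of the list, at ranks 101 to 1000. Among the 100 strongest pooled regions, 4 lay in the domain and 6 in the rest of the arm, a density ratio of 1.92. At ranks 101 to 500 there were 79 and 21, a density ratio of 10.8, and at ranks 501 to 1000 there were 95 and 25, a ratio of 10.9. The ratio fell to 3.92 at ranks 1001 to 5000 and to 1.41 at ranks 20001 to 30000. Replicate 1 had ratios of 2.40, 11.5 and 10.2 in the 3 strongest classes, and replicate 2 had 1.80, 10.4 and 9.83.

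**Figure D3:**
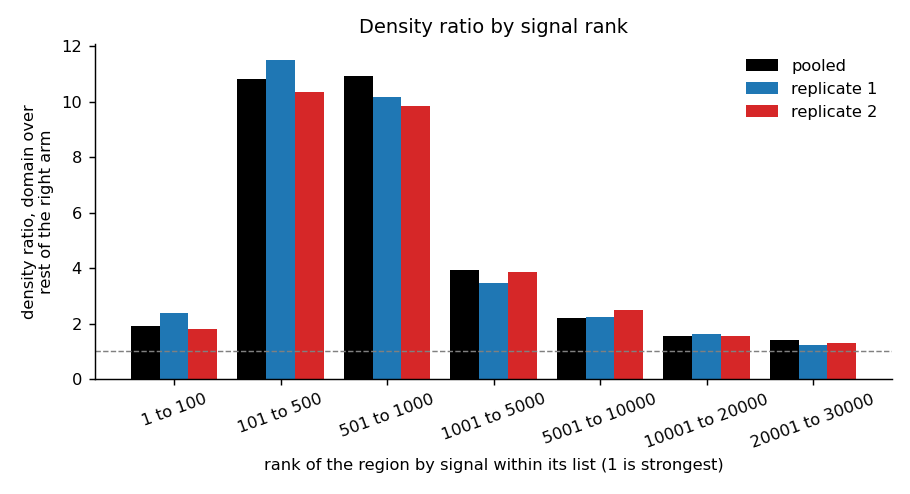
Ratio of the density of regions in the domain to that in the rest of the right arm, for classes of rank by signal (1 is strongest) within the pooled list and the list of each replicate. The dashed line marks a ratio of 1, and the bars for ranks 101 to 500 and 501 to 1000 stand near 10 or above in all 3 lists.

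The authors' reproducibility filter (irreproducible discovery rate, IDR) kept 82 of the 1306 members, which is 6.28%, where 1.65% of all pooled regions were kept. It kept 27 of the 1698 regions of the rest of the arm, or 1.59%. The filter's list holds the strongest pooled regions by signal, so this share is no separate evidence. The 82 members in the IDR list ranked from 16 to 494 in the pooled list, and the strongest member outside it ranked 498. They made up 16.6% of the 495 regions of the IDR list, at a density of 46.9 per Mb against 5.36 in the rest of the arm. Their median signal of 129.8 was lower than that of the IDR regions in the rest of the arm, 150.8, and of the whole IDR list, 155.8. Of the 82, 27 lay in the left block, 3 in the middle, 51 in the right block and 1 in the right margin. The steps that start at 11900001, 13050001 and 13250001 held 9 each. Dense steps could hold none, as did the step from 13150001 with 42 candidates. Members of the IDR list less than 1 kb apart formed 4 clusters, so that the 82 regions were 74 separate sites.

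Most candidates of the domain had a counterpart in both replicates. Of the 1306 members, 972 were overlapped by at least 1 bp in the lists of both replicates, which is 74.4% (exact 95% binomial interval 72.0 to 76.8%, counting error only), where the share over all pooled regions was 52.1%. The share was 53.9% in the rest of the arm. Candidate regions of the replicates covered 29.1% and 28.7% of the bases of the domain, against 14.5% and 13.8% in the rest, and the part of this coverage in the overlap was not tested. In neither replicate were 18 of the 1306 members overlapped, against 1119 of all 30000 pooled regions. All 82 members in the IDR list were overlapped in both, as were 494 of all 495 IDR regions, so this count does not set the domain apart.

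The order of the 82 IDR members within the replicates was another matter. A region within the first 495 ranks of both replicates overlapped 30 of the 82 (36.6%), against 18 of 27 (66.7%) in the rest of the arm. Spearman's rho between the signals of the replicates was 0.05 over the 82 members and 0.65 over the 27, given as a description. Over all 972 members matched in both lists it was 0.37, against 0.34 over 915 regions in the rest of the arm. The members sat at the weaker end of the IDR list, where 62 of the 82 had a pooled signal below 150, against 165 of the 413 IDR regions outside the domain. This limit was set after the values had been seen. At 150 or above, 19 of 20 members were among the 495 strongest in both replicates, as were 234 of 248 outside. Below 150 the numbers were 11 of 62, or 17.7%, in the domain, and 41 of 164 with a match in both lists, or 25%, outside. Spearman's rho below 150 was −0.59 in the members and −0.37 outside, and at 150 or above 0.52 and 0.70. The pooled signal rises with the signals of both replicates, so choosing a narrow band of pooled signal lowers rho by itself. The values below 150 therefore do not measure reproducibility. The 0.05 over the 82 is affected in the same way, since 62 of them lie in that band. In 26 members the rank in one replicate was above 1000, 10 times in replicate 1 and 16 times in replicate 2. That is 31.7% of the 82, against 48 of 412 IDR regions outside the domain (11.7%), and below a pooled signal of 150 the shares were 41.9% and 28.7%. Examples are in introns of aakg-1 (AMP-activated kinase, gamma subunit), at rank 7192 in replicate 1 and 218 in replicate 2, and of unc-25 (glutamate decarboxylase, which makes the transmitter GABA), at ranks 187 and 4443. Both were named after their values had been seen.

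**Figure D4:**
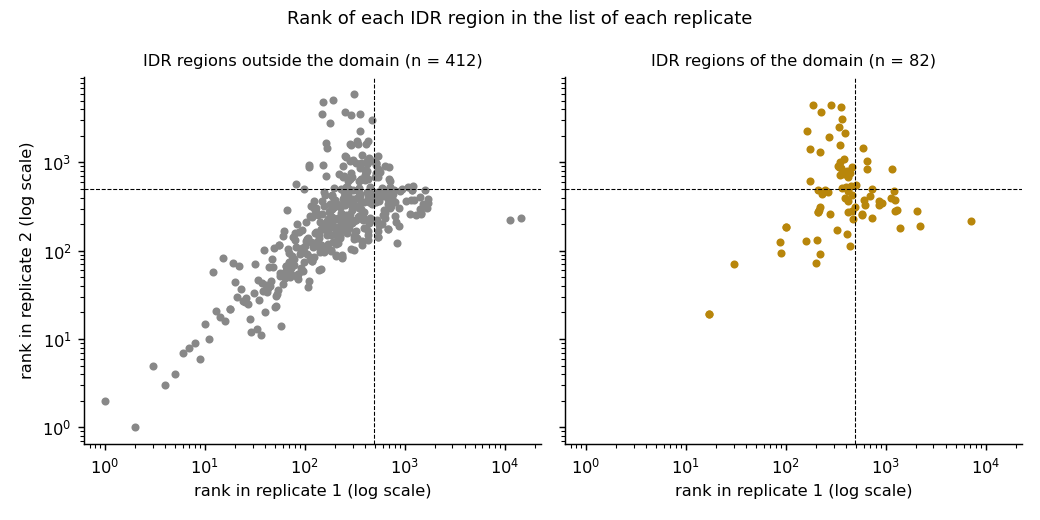
Rank of each IDR region in the list of replicate 1 (horizontal, log scale) and of replicate 2 (vertical, log scale), for the 412 regions outside the domain with a match in both lists (left) and the 82 members (right). The dashed lines mark rank 495, and 30 of the 82 members lie below and to the left of both lines.

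The strongest member lay at the start of Y39E4B.6 (13070522 to 13070977, outside the gene body), 6 bp before a transcript start. Its signal was 413.9 in the pooled list, at rank 16, and 226.8 and 197.8 in replicates 1 and 2, at ranks 17 and 19. A second member, at 13070725 to 13071180 in the untranslated region of the same gene, had a pooled signal of 205.6 and overlapped the same regions of the replicates. With 2 weaker regions in the gene these formed 1 of the 4 clusters.

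The next members in promoter windows stood at genes of different roles. The member 331 bp before the start of cox-5A, a subunit of mitochondrial cytochrome c oxidase, lay at 12904932 to 12905387 with a signal of 314.9 in the pooled list, 188.4 in replicate 1 and 128.3 in replicate 2. One member (12874681 to 12875136) stood before both mrg-1, a chromodomain protein needed in the germ line, and spcs-2, a subunit of the signal peptidase complex, with signals of 255.8, 128.9 and 104.0. Before cpf-2, a homologue of the RNA 3′ end processing factor CstF-64, a member at 13268789 to 13269244 had signals of 222.5, 93.3 and 128.0. These 3 members were among the 200 strongest regions in each list.

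A pair of members stood at set-25, which encodes a methyltransferase of histone H3 lysine 9. Their summits were 23 and 231 bp before its start and their pooled signals 197.1 and 192.1. In both replicates they overlapped 1 region, with a signal of 124.4 in replicate 1 and 85.5 in replicate 2, so they count as 1 site there. Further promoters with a member among the 20 strongest belonged to C24H11.2 (207.3 pooled, with the tRNA gene WBGene00014264 beside the summit), rbm-7 (171.2), mtm-6 of the myotubularin family (151.3) and gldi-8 (150.4).

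The other members among the 20 strongest lay inside genes and in no promoter window. The strongest was in F14F7.5 (13032431 to 13032886), with signals of 247.3, 128.6 and 116.4 in the pooled list and replicates 1 and 2, at the repeated sequence shown above. A member in Y56A3A.6 (11875857 to 11876312) had 204.0, 92.2 and 103.0. The gene Y56A3A.7 held 3 of the 20, with pooled signals of 196.2, 171.9 and 153.3, and 5 IDR regions in all. The member with 171.9 had its summit beside the microRNA gene cel-mir-8211. The rest were in Y43F4A.1 (174.2, beside the tRNA gene WBGene00014575), Y75B8A.6 (160.8), elpc-2, a subunit of Elongator (151.2), and twk-39, a potassium channel (150.6). All 20 had a region in both replicates, and the elpc-2 member was the weakest in replicate 2, at rank 617.

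The genes with the most member summits were long, and their candidates were mostly outside the IDR list, as were those of the domain as a whole. The largest number, 34, was in or before aakg-1, which spans 36.7 kb, with a median signal of 52.7 and 3 IDR regions. gbf-1, an exchange factor for Arf GTPases, held 22 with no IDR region, and ssl-1, a chromatin remodeller of the SWI2/SNF2 kind, held 22 with none. pqn-80 held 20 with none. gly-5 (an N-acetylgalactosaminyltransferase), pqn-83 and zig-8, an immunoglobulin-domain protein, held 17 and 1 IDR region each. Y56A3A.7, with 14 summits over 13.0 kb, held 5 IDR regions. The counts include promoter windows. Divided by the length of the gene alone, they gave between 0.730 and 1.42 summits per kb in the 7 genes with the most summits. The value in aakg-1 was 0.925. The domain as a whole held 746.3 summits per Mb, so the lowest of these genes were near its average.

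Of the 267 protein-coding genes that start in the domain, 195 (73.0%) had a candidate summit in a promoter window, which ran from 1000 bp before to 200 bp after a transcript start. In the rest of the arm 502 of 1059 did (47.4%). An IDR region stood in the window of 26 genes (9.74%), against 24 (2.27%) in the rest. Gene classes were set by the letters of the symbol and do not hold every gene of a function. In the class with the symbols set, met, hpl, mrg, hda and lin, the domain had mrg-1 and set-25, both with an IDR region in the window, and of the 11 genes of that class in the rest of the arm 9 had a candidate and none had an IDR region. The only histone gene, his-72, which encodes the H3.3 variant, had an IDR region with signals of 121.6, 70.8 and 53.5 in the pooled list and replicates 1 and 2. Of the nuclear pore genes, npp-16 had an IDR region (121.8, 72.3 and 40.6), while npp-25 (97.9) and npp-18 (50.9) had candidates outside that list. The nuclear pore class had no candidate in the rest of the arm, in 3 genes. Of the mitochondrial genes, cox-5A had an IDR region and mrps-10 had a candidate with 97.9, the same region as that of npp-25. The proteasome gene rpt-6 had a candidate with 63.8. None of the 4 F-box genes of the large families of the arms, fbxa-218, fbxa-89, fbxb-22 and fbxb-24, had a candidate in the window, against 4 of the 14 genes of such families in the rest. No ribosomal protein gene and no gene named hlh, ceh, nhr or ztf started in the domain. The classes are small and were not tested.

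Members at genes for small RNAs were counted next. Of the domain's 7 tRNA genes 4 had the summit of a member within 100 bp, 2 of them IDR regions. None of the 5 snoRNA genes had such a summit, though the IDR region at his-72 reached into the snoRNA gene Y49E10.36. The spliced-leader gene sls-2.8 had a candidate with signals of 99.0, 68.6 and 32.8 in the pooled list and replicates 1 and 2, outside the IDR list. Of 3 microRNA genes 1, cel-mir-8211, had a summit within 100 bp, and the same region also covered cel-mir-86. The rest of the arm had 6 IDR regions at its 23 tRNA genes. As shares of IDR regions these were 2 of 82 (2.44%) in the domain and 6 of 27 (22.2%) in the rest, which differ in the number of IDR regions at other places.

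Fewer members than regions elsewhere lay in promoters and coding exons, and more lay in introns. Promoter windows held the summits of 23.3% of members and of 33.6% of the rest. Coding exons held 12.1% and 19.0%, and introns 52.8% and 36.5%. The bases differed in the same direction. Introns made up 48.9% of the bases of the domain and 33.2% of the rest, coding exons 19.7% and 28.0%, and promoter windows 20.2% and 26.4%. In the 500 kb before the domain coding exons made up 19.0%, so their low share was not particular to the domain. The median protein-coding gene spanned 3263 bp in the domain and 2158 bp in the rest. The rest includes sequence near the middle of the chromosome, which was not separated in these comparisons.

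Counted per Mb of the same kind of base, candidates were denser in the domain in every kind. Promoter windows held 859.3 summits per Mb in the domain and 429.2 in the rest, a ratio of 2.00, with 1.92 in replicate 1 and 1.89 in replicate 2. The ratio was 2.00, 1.89 and 1.76 in coding exons and 2.18, 2.05 and 2.29 in introns, in the same order of lists. Outside gene bodies and promoter windows it was 2.44, 2.50 and 2.43. No kind of base carried the density alone.

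**Figure D5:**
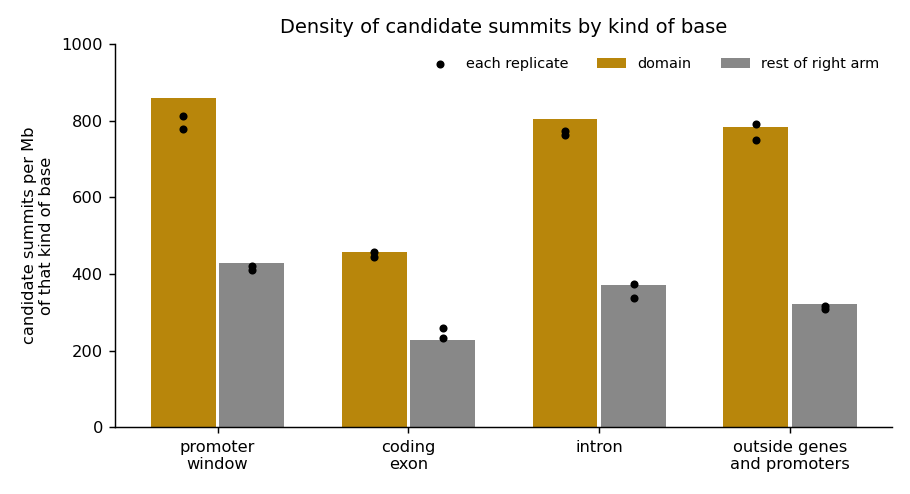
Candidate summits per Mb of promoter windows, coding exons, introns and bases outside both genes and promoters, in the domain and the rest of the right arm, with bars for the pooled list and points for each replicate. The domain stands above the rest in each kind, with 859.3 against 429.2 in promoter windows and 783.4 against 321.0 outside genes and promoters.

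Among IDR regions the places differed as well. Of the 82 members 24 (29.3%) had a summit in a promoter window, against 15 of 27 (55.6%) in the rest of the arm, and 42 (51.2%) lay in introns, against 10 of 27 (37.0%). A further 14 members lay outside gene bodies and promoters. With the regions at tRNA, snoRNA and snRNA genes left out, 28.8% of 80 members and 69.5% of 233 IDR regions outside the domain were in promoter windows.

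Repeat-masked sequence was common in the domain. Lower-case letters, which mark repeats and simple sequence in the RefSeq file, made up 53.4% of the domain and 35.5% of the rest of the arm, while the GC content was 35.7% in both. Over the 135 full steps of the arm, the lower-case share and the pooled count had a Spearman rho of 0.70, within the 35 steps of the domain it was 0.19, and within the 100 others 0.52. These values describe steps that share libraries and neighbours. In steps with 45 to 55% of lower-case letters, the 13 of the domain held 26 to 56 summits with a median of 42, and the 15 of the rest held 17 to 37 with a median of 24. In steps with 55 to 65% the medians were 40 in 15 steps and 24 in 5. The 500 kb before the domain, with a lower-case share of 53.6%, held 530 summits per Mb. The part of read mapping in repeats was not tested, and reads of a control library were not analysed here.

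Sequence content was also compared at the reproducible members. In the 101 bp at the summit, lower-case letters made up a mean of 56.2% in the 82 IDR members, 14.1% in the 27 of the rest of the arm and 26.3% in the whole IDR list. Their mean GC content was 43.4% ± 9.35 (SD over 82 regions), against 49.6% ± 9.74 (SD over 27 regions). Over all 1306 members the mean GC content was 37.7%, close to the 38.3% of the rest of the arm.

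The shares of reproducible members with the letter patterns are set beside those of IDR regions elsewhere, with no test. The patterns were chosen with earlier results of these data known and were searched on both strands. ACGCGC and CGCGCC can overlap each other. Away from tRNA, snoRNA and snRNA genes, 11 of 80 members (13.8%) held at least 1 of the first 3 patterns in the order given above, against 84 of 233 regions outside the domain (36.1%). ACGCGC was in 3.75% of these members and 13.7% of these regions, CGCGCC in 7.50% and 15.9%, and GCCGCA in 6.25% and 18.5%. Over all 30000 pooled windows the shares were 2.54%, 2.84% and 2.98%. Over all 1306 members they were 3.75%, 4.06% and 3.22%, above the 2.71%, 2.12% and 2.47% in the rest of the arm. The lower shares were thus limited to the IDR regions. The 80 members and 233 regions also differed in promoter share, 28.8% and 69.5%, and in median signal, 128.9 and 146.7. CAGGTG, a form of E-box bound by Snail proteins in other animals, was in 0 of the 82 IDR members, which allows a share of up to 4.40% (exact 95% binomial interval), in 1.94% of the 413 IDR regions outside the domain, and in 2.65% of all windows. CACTTG was in 4.88% of the IDR members, 8.23% outside and 3.98% of all windows. GTTCGA, letters found in the internal promoter of tRNA genes, was in 7.32%, 20.3% and 3.57%, with regions at tRNA genes included. Away from tRNA, snoRNA and snRNA genes it was in 6.25% of the 80 members and 3.43% of the 233 regions outside. A match describes the letters in the window and not a binding event.

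The endogenous genes unc-119 and snai-1 lay outside the domain. Where the transgene wgIs698 is integrated was not examined. unc-119 (10902641 to 10908935), which carries the tm4063 allele on the same chromosome, ends 841.1 kb before the left edge and had 5 candidates within 1 kb, none in the IDR list and the highest with a signal of 86.0. snai-1 on chromosome IV (311484 to 313715) had 5 candidates, none in the IDR list and the highest with 63.5.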

How the data were processed

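Per the labels, the series holds 1 group with 2 biological replicates, numbered as there. The authors deposited 1 list of 30000 candidate regions per replicate, 1 pooled list and 1 list of regions that passed an IDR threshold. The seventh column holds the caller's signal per region as deposited by the authors, and the ninth the −log10 q-value as deposited. Which aligner, caller, versions and IDR threshold were used is not given in the sources used here. Only the ce11 lists were used. The lists carry no read counts and depth is unknown. Intervals cover counting error only. The control library was not analysed here.

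Regions were placed by their summit. Genes came from Ensembl release 115 on WBcel235, the build with the coordinates of ce11, and sequence from RefSeq. A pooled region was matched to the strongest overlapping region of a replicate, with an overlap of at least 1 bp. Steps began at round positions of 50 kb. Summaries used Python 3.11.15 with pandas 2.3.3, numpy 2.4.6 and scipy 1.17.1, were tested on simulated data, and figures used matplotlib 3.10.9. Intervals are exact (Clopper-Pearson) 95% binomial intervals.

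The members, gene lists and letter patterns were chosen with earlier results of these data known. Named genes were unc-119 and snai-1, those at the 20 strongest members, the 5 with most summits (7 with ties), and up to 3 per gene class with the highest promoter signal. Blocks within the domain, the signal limit of 150, the classes of lower-case share and the counts away from small RNA genes were added after the data were seen. Alternatives were each replicate alone, the 15000 strongest regions, other edges, other stretches for comparison, and other windows and overlaps.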

Additional observations from a re-analysis of the deposited data

How the results depend on the processing

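The density ratio and the median signal ratio stayed above 1 under each alternative tried for them. The shares and the GC content below were recomputed for members alone, and the other results had no alternative. The density ratio of 2.21 ranged from 2.13 to 2.17 with 1 replicate left out, and was 2.95 with the 15000 strongest regions. It was 2.25 with the interval narrowed by 100 kb at each edge and 2.34 without 250 kb of few IDR regions. Those 250 kb were picked for low values, so the higher ratio without them is no separate support. Against chromosome III outside the domain it was 2.05, and against chromosome III before 7000000 it was 1.95. The median signal ratio of 1.19 was 1.20 to 1.21 with 1 replicate left out, 1.18 with the 15000 strongest, 1.21 without the 250 kb, 1.21 against chromosome III outside the domain and 1.22 against its part before 7000000. With the 15000 strongest regions, 8.99% of members were in the IDR list, 10.5% in coding exons and 86.3% overlapped in both replicates, and the mean GC content was 38.0%. The share in promoter windows ranged from 22.1 to 22.7% with 1 replicate left out, was 22.7% in the narrowed interval and 22.7% without the 250 kb, and was 39.6% with windows of 2000 to 500 bp and 12.6% with 500 to 100 bp. Coding exons held 12.1 to 12.7% with 1 replicate left out and 11.6% in the narrowed interval. With 50% of a region covered, 60.3% were found in both replicates. Mean GC was 37.2 to 37.4% with 1 replicate left out and 36.9% with 150 bp to each side. The causes were not tested. No paired analysis was possible because there was 1 group.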
